A study of Canis lupus familiaris with 186 samples.

Results

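Primary osteosarcomas of 186 dogs were ranked by their content of skeletal muscle transcripts, and the 26 dogs with the highest muscle score were compared with the 93 dogs with the lowest. The dogs were chosen by the counts of 3 muscle genes themselves, since the score averages the z-scores of log2(CPM + 1) of MYH1, MYL1 and ACTA1. CPM is the count scaled to the library total, and 1 is the pseudocount. The 26 dogs are called muscle-high, the 93 dogs muscle-low, and the 67 dogs that lie between them entered the fit as a group of their own. The tumors are appendicular osteosarcomas of pet dogs (Canis lupus familiaris), biopsied before any treatment, and the mRNA of each was sequenced once, so a dog is the replicate. The dogs came from the trials COTC021 and COTC022, with 93 dogs each, and the labels give the same tissue, primary osteosarcoma, for all of them. Breed, age, sex and tumor site were not used here.

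Skeletal muscle fibers contract through sarcomeres, in which myosin heavy chains pull on actin filaments under the control of troponin. Fast and slow fibers carry different forms of the myosins, troponins and calcium pumps, and growing or regenerating fibers carry embryonic and perinatal forms. Tumors of the limb bones can extend into the muscle, fascia and fat around the bone, and a bulk biopsy mixes the RNA of every cell it holds. In such data more muscle fibers in a sample and more muscle RNA made by its cells cannot be told apart, and the same holds for fewer cells of a type and less RNA per cell.

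The 3 scoring genes chose the groups, so their values are a description and carry no test. MYH1, a myosin heavy chain of fast fibers, ranged from 4.03 to 2048 CPM in the muscle-high dogs, with a median of 69.0 CPM, and from 0 to 4.07 CPM in the muscle-low dogs, with a median of 0.189 CPM. MYL1, a myosin light chain of fast fibers, had medians of 148 and 0.593 CPM. ACTA1, the skeletal muscle actin, had medians of 378 and 1.81 CPM. The muscle-low dogs were low in muscle transcripts and not free of them. Of the 93 muscle-low dogs, 72 had at least 10 counts of at least 1 scoring gene, 13 had at least 10 counts of all 3, and 1 had 0 counts of all 3. Scores ran from -1.07 to 3.54 without a gap at either boundary, with 0.818 in the dog ranked 26, 0.795 in the dog ranked 27, -0.217 in the dog ranked 93 and -0.227 in the dog ranked 94.

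**Figure D1:**
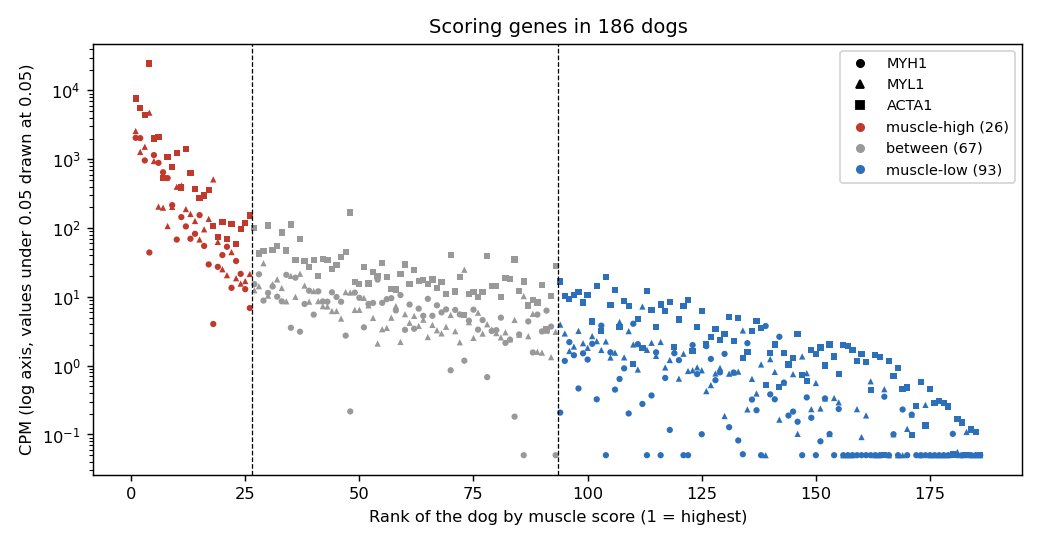
CPM of MYH1, MYL1 and ACTA1 (log axis) in each of the 186 dogs, ordered by muscle score, with dashed lines at the boundaries of the muscle-high and muscle-low groups. The values fall from the left to the right without a step at either boundary, and the circle of MYH1 at 4.03 CPM among the muscle-high dogs is the dog ranked 18.

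Library totals ranged from 6587634 to 27420867 counts and were not significantly different between the muscle-high and muscle-low dogs, with a mean difference of -0.15 on the log2 scale (permutation test, two-sided, 100000 resamples, p = 0.185). COTC021 gave 11 of 26 muscle-high and 49 of 93 muscle-low dogs (Fisher's exact test, two-sided, p = 0.382). The 50 libraries whose deposited names are written in another form are deeper, with a median of 19440456 counts against 9851682 in the other 136, and they gave 7 of 26 and 31 of 93 dogs (Fisher's exact test, p = 0.638). The skeletal muscle genes listed here, scoring genes included, took between 0.282% and 19.9% of the counts of a muscle-high library, with a median of 0.840%. In the muscle-low libraries they took 0.147% to 0.465%, with a median of 0.312%, so the ranges overlapped. The lists hold genes that other cells also express, such as TPM1, with a muscle-low median of 544 CPM. The dog ranked 186, with 0 counts of all 3 scoring genes, had a share of 0.324%. A share of this size is therefore not a measure of muscle RNA. In 10 of the 26 muscle-high dogs the share was above 1%, and in 2 of them above 5%.

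A pair of muscle-high libraries stood apart from the rest. The dog ranked 4 had the largest muscle share, 19.9%, and 16520 CPM of the slow myosin MYH7 beside 44.2 CPM of MYH1. The dog ranked 18 went against the picture of mature muscle, with 4.03 CPM of MYH1, 8.04 CPM of MYH2 and 14.7 CPM of the muscle creatine kinase CKM, while MYL1 stood at 509 CPM, the embryonic myosin MYH3 at 126 CPM and the myogenic regulator MYOG at 29.7 CPM. The fit was repeated without each of these dogs. The counts of genes higher and lower were 1150 and 338 without the dog ranked 18, and 801 and 201 without the dog ranked 4.

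With all dogs, 912 of 13422 genes tested were higher and 329 were lower in the muscle-high dogs (limma, adjusted p below 0.05), or 6.79% and 2.45% of the genes tested. Of these, 130 genes (0.969%) were differentially expressed genes (DEGs) that were higher by more than 3-fold, and 2 genes (0.0149%), CDK3 and HOXD12, were DEGs that were lower. Higher genes made up 73.5% of the calls. This split depended on the scaling and the test, with 691 higher and 463 lower genes without TMM, 596 (4.44%) and 554 (4.13%) with edgeR's quasi-likelihood test, and 654 (4.87%) and 776 (5.78%) with DESeq2. The median log2 fold change over all genes was -0.00305 in the limma fit and -0.0514 without TMM. Of the 130 DEGs that were higher, 43 were scoring genes or members of the skeletal muscle lists and 87 were not.

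The genes of the fast-fiber sarcomere were far higher in the muscle-high dogs. Of the 11 genes listed, 7 passed the low-count filter, and all 7 were higher, by a median of 7.04 on the log2 scale. The filter requires counts in more dogs than the muscle-high group holds, so no gene passed it through that group alone. MYH2, a fast myosin heavy chain, ranged from 8.04 to 3180 CPM in the muscle-high dogs (median 138) and from 0 to 7.79 CPM in the muscle-low dogs (median 0.245). The groups did not overlap for MYH2, and the log2 fold change was 8.97 ± 0.50 (SE, n = 26 and 93, limma adjusted p = 2.97e-39). A read can be divided between MYH2 and the scoring gene MYH1, so this result is not independent of the score that chose the groups. TNNT3, the fast troponin T, ranged from 5.12 to 1937 CPM (median 110) against 0 to 2.20 CPM (median 0.339), again without overlap, with a log2 fold change of 8.57 ± 0.43. The share of all genes without overlap is not given here, so a lack of overlap is only a description. The fast troponin I TNNI2 did not overlap between the groups either and differed by 7.46 on the log2 scale. MYLPF, the regulatory light chain of fast fibers, was higher by 7.04, and 2 muscle-low dogs lay above the lowest muscle-high dog.

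Slow-fiber genes were higher as well, with more overlap between the groups. Of the 11 genes listed, 8 were tested, 6 were higher and the median log2 fold change was 4.38. MYL2, the regulatory light chain of slow fibers, ranged from 3.81 to 11760 CPM (median 75.5) in the muscle-high and from 0 to 4.80 CPM (median 0.161) in the muscle-low dogs, a log2 fold change of 8.40 ± 0.53 (limma adjusted p = 2.41e-33). The slow troponin T TNNT1 and the slow myosin-binding protein MYBPC1 were higher by 7.71 and 7.42. MYH7, the slow myosin heavy chain, had a median of 88.4 CPM against 4.36 CPM, and 48 of 93 muscle-low dogs lay above the lowest muscle-high dog. Its log2 fold change was 4.54 ± 0.33. The slow tropomyosin TPM3, which many other cells also express, had a log2 fold change of 0.23 (limma adjusted p = 0.116), and MYH7B, a further myosin heavy chain, one of -0.17. Neither passed the test.

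**Figure D2:**
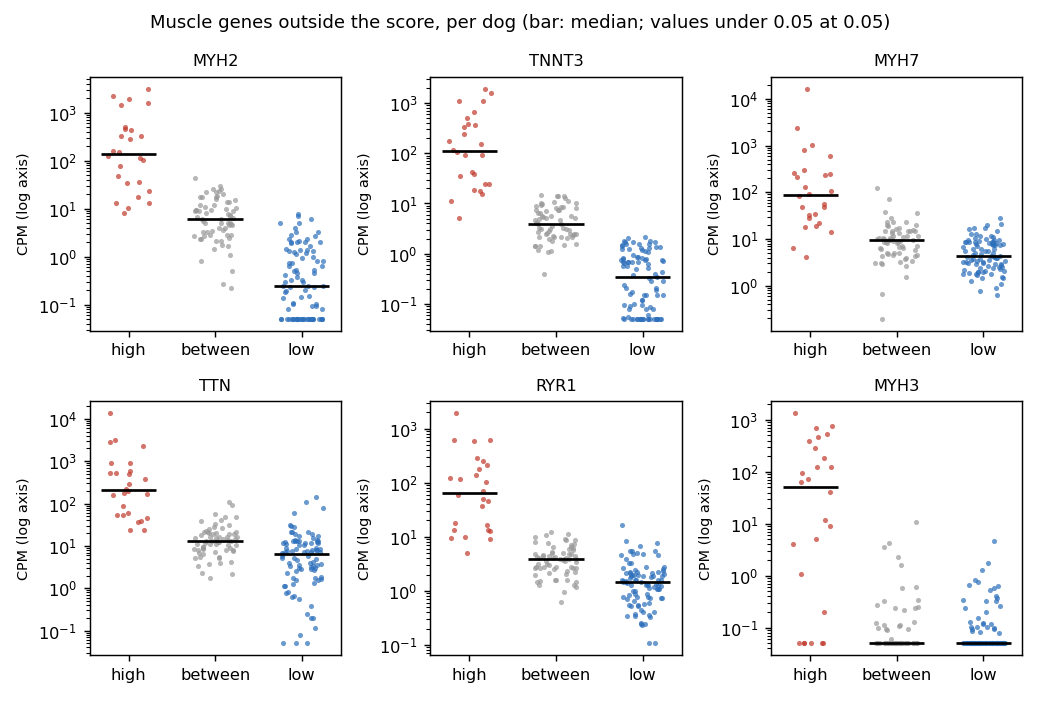
CPM (log axis) of 6 muscle genes that were not part of the score, 1 point per dog, with the median of each group as a bar. MYH2 and TNNT3 do not overlap between the muscle-high and muscle-low dogs, MYH7, TTN and RYR1 do, and MYH3 has a median of 51.4 CPM in the muscle-high dogs and 0 in the muscle-low dogs.

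All 16 tested genes of the sarcomere scaffold, of 30 listed, were higher, by a median of 4.86. KLHL41, a kelch protein that stabilizes the thin filament, ranged from 8.63 to 3005 CPM (median 104) against 0 to 5.78 CPM (median 0.394), without overlap, and differed by 8.12 ± 0.41 on the log2 scale. NEB, encoding nebulin, which runs along the thin filament, had medians of 196 and 1.33 CPM and was higher by 6.77 ± 0.39. TTN, encoding titin, which spans the sarcomere from its border to its centre, was higher by 5.83, and DES, the intermediate filament desmin, by 5.93. For NEB and DES, 13 of 26 muscle-high dogs lay above the highest muscle-low dog. The smallest fold change of the list, 0.65, was that of the tropomyosin TPM1, which smooth muscle and fibroblasts also make.

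Of the 21 genes listed for excitation-contraction coupling, 8 were tested and all 8 were higher, by a median of 2.37. RYR1, the calcium release channel of the sarcoplasmic reticulum, ranged from 4.91 to 1942 CPM (median 64.9) against 0.107 to 16.5 CPM (median 1.43), a log2 fold change of 5.69 ± 0.32. ATP2A1, the calcium pump of fast fibers, was higher by 4.85 ± 0.28, and 24 of 26 muscle-high dogs lay above the highest muscle-low dog. PLN, phospholamban, which restrains the calcium pump of slow and cardiac muscle, was higher by 3.26 in this fit and by 1.72 with edgeR. STAC3, an adaptor of the voltage sensor, was higher by 2.51, with 69 muscle-low dogs above the lowest muscle-high dog.

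Muscle energy genes divided. Of 15 tested, of 23 listed, 9 were higher, and the median log2 fold change was 1.28. CKM, which buffers ATP through creatine phosphate, ranged from 14.7 to 20350 CPM (median 230) against 0 to 19.4 CPM (median 1.29), a log2 fold change of 8.31 ± 0.44 (limma adjusted p = 9.08e-42). MB, the oxygen-binding myoglobin, was higher by 6.6 and PYGM, the glycogen phosphorylase of muscle, by 5.72. PDK4, which restrains the entry of pyruvate into the citrate cycle, was higher by 3.14, but 77 muscle-low dogs lay above the lowest muscle-high dog. GYS1, the glycogen synthase of muscle and other tissues, had a log2 fold change of -0.05, and COX7A1, a muscle form of a respiratory chain subunit, one of 0.09. Neither passed the test.

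The tested genes of the sarcolemma and of the regulators of muscle formation showed smaller differences. Of 12 tested genes of the dystrophin complex and sarcolemma, of 17 listed, 5 were higher and 1 was lower, with a median log2 fold change of 0.40. HJV, a co-receptor for bone morphogenetic proteins, was higher by 3.01 and DMD, encoding dystrophin, by 2.14 ± 0.22. Of 13 regulators and satellite cell genes only 4 were tested, and 1 was higher in limma and 0 with edgeR. Members that failed the filter carry no test. At least 10 counts of the regulator MYF6 were found in 19 muscle-high, 2 intermediate and 0 muscle-low dogs. For the acetylcholine receptor subunits CHRNA1 and CHRND the numbers were 17, 1 and 0, and 15, 0 and 0. Those of VGLL2 were 19, 13 and 24, and those of MSTN 3, 12 and 15. Over the 132 genes of the skeletal muscle lists, scoring genes not counted, 71 were tested, 53 were higher, 1 was lower and 17 were not called, with a median log2 fold change of 2.16.

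Some genes of developing or regenerating fibers had counts in most muscle-high dogs. Apart from MYL6B, a myosin light chain that was higher by 2.11, they failed the low-count filter and are given by their counts without a test. MYH3, the embryonic myosin heavy chain, had at least 10 counts in 18 of 26 muscle-high dogs, 6 of 67 dogs between the groups and 5 of 93 muscle-low dogs. Its median was 51.4 CPM in the muscle-high dogs and it reached 1355 CPM in the dog ranked 10, against at most 4.73 CPM in the muscle-low dogs. MYOG, which drives the final step of muscle differentiation, had at least 10 counts in 14 muscle-high dogs, 0 dogs between the groups and 1 muscle-low dog. CHRNG, the fetal subunit of the acetylcholine receptor, had them in 16, 0 and 1 dogs. The myogenic regulators MYOD1 and MYF5 had them in 2 and 9 muscle-high dogs and in 2 and 2 muscle-low dogs. The fusion proteins MYMK and MYMX had them in 6 and 7 against 4 and 0, and the synaptic kinase MUSK in 9 against 3. MYMK reached 17.0 CPM in the muscle-low and 5.21 CPM in the muscle-high dogs, and MUSK 6.76 and 2.39 CPM. MYL4, a further gene of the list, had at least 10 counts in 17 muscle-high, 16 intermediate and 26 muscle-low dogs. Of 8 cardiac genes 1 was tested, the calcium channel RYR2, with a log2 fold change of 0.0022. NPPA and MYL7, which mark atrial heart muscle, had medians of 0 CPM in the muscle-high dogs. TNNT2, the cardiac troponin T, failed the filter and reached 166 CPM in the dog ranked 3. The summed cardiac genes had medians of 17.6 CPM in the muscle-high and 6.89 CPM in the muscle-low dogs. They reached 192 and 60.7 CPM, without a test. PAX7, a marker of satellite cells, had at least 10 counts in 15 muscle-high, 17 intermediate and 25 muscle-low dogs.

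The muscle-high dogs differed in which myosin heavy chain they carried. Among the counts of MYH1, MYH2, MYH4, MYH7, MYH3 and MYH8, MYH2 was the largest in 10 dogs, MYH7 in 6, MYH1 in 5 and MYH3 in 5. MYH7 held 90.9% of these counts in the dog ranked 4, MYH2 84.5% in the dog ranked 22, MYH3 85.9% in the dog ranked 18 and MYH1 69.5% in the dog ranked 23. Of the 18 dogs ranked 1 to 18, 17 had at least 10 counts of MYH3, against 1 of the 8 dogs ranked 19 to 26. The dog without them among the first 18 was ranked 8, with 0 counts of MYH3 beside 532 CPM of MYH1. The cut at rank 18 was not planned and the ranks follow the muscle score itself, so this split is a description. MYH4, the fastest myosin, held at most 0.489%. MYH8, MYH4, MYH1, MYH2 and MYH3 lie side by side on chromosome 5 between positions 34905311 and 35145374 of build UU_Cfam_GSD_1.0, and they are similar enough that a read can be divided between them, so their shares are uncertain. The shares are of counts and are not scaled to transcript length. MYH7 lies on chromosome 8.

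**Figure D3:**
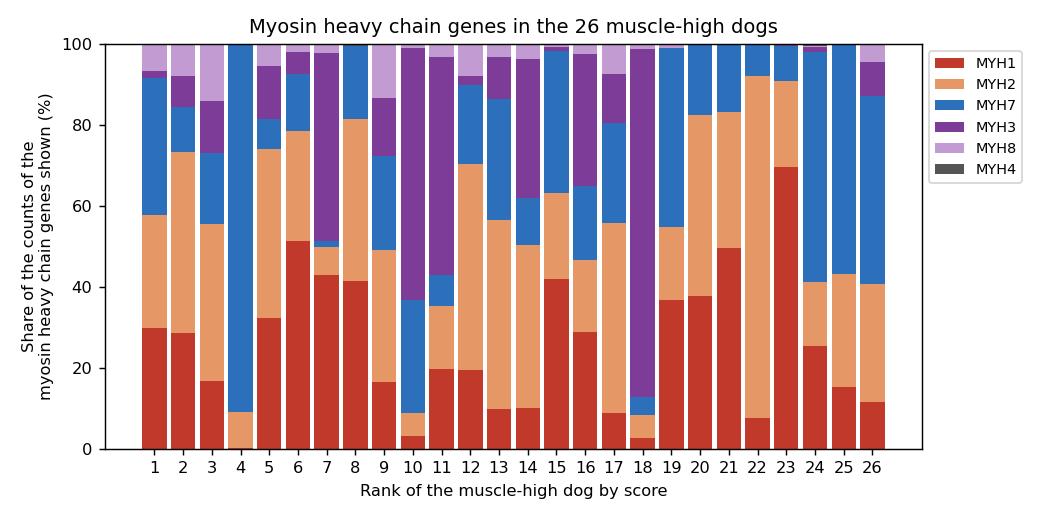
Share (%) of 6 myosin heavy chain genes in their summed counts for each of the 26 muscle-high dogs, ordered by muscle score, as stacked bars to 100%. MYH7 fills 90.9% of the bar of the dog ranked 4 and MYH3 85.9% of that of the dog ranked 18, while MYH2 is the largest part in 10 dogs.

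Of the genes tested, those that followed the score most closely over the 186 dogs were CKM, TNNT3, PYGM, KLHL41, MYH2, MYBPC1, TNNC2 (the fast troponin C), TNNI2, NRAP (an anchor of actin filaments) and MB, in this order. Spearman's rho with the score was 0.952 for CKM, 0.930 for TNNT3 and 0.861 for MB, as a description in which both values come from the same library. Within the 93 muscle-low dogs rho was still 0.862 for CKM and 0.616 for TNNT3. For TTN, in contrast, it was 0.900 within the 26 muscle-high dogs and 0.151 within the muscle-low dogs, and for DES 0.848 and 0.130.

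The 67 dogs between the groups carried intermediate levels of many muscle genes. Against the muscle-low dogs, 22 of the 71 tested members of the skeletal muscle lists were higher in them and 0 were lower (limma), beside 141 higher genes (1.05%) among all 13422. CKM was higher by 4.71 and MYH2 by 4.33 in these dogs, while MYH7 had a log2 difference of 0.92 (limma adjusted p = 0.1). These dogs were chosen by the same score.

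Some genes of other tissues around bone were also higher in the muscle-high dogs in limma, and part of these calls was lost with other tests. Of 8 tested genes of tendon and fascia fibroblasts, 4 were higher in limma (50.0%, beside 6.79% of all genes), and the median log2 fold change was 1.37. With edgeR 0 of the 8 were called and with DESeq2 1, at medians of 0.52 and 0.56. MFAP5, a microfibril protein of fascia, ranged from 0 to 818 CPM (median 14.6) in the muscle-high and from 0 to 1677 CPM (median 0.747) in the muscle-low dogs, and 25 of 26 muscle-high dogs lay above the muscle-low median. The ranges overlapped throughout, and the log2 fold change was 4.05 ± 0.62 (limma adjusted p = 8.88e-08). With edgeR it was 0.93 (adjusted p = 0.456). THBS4, a thrombospondin of tendon, was higher by 2.71 in limma and had a log2 fold change of 0.05 with edgeR (adjusted p = 0.976), where 1 muscle-low library at 10020 CPM is the highest of all dogs in both groups. PRG4, the joint lubricant lubricin, was chosen after its values were seen and was higher by 4.05 ± 0.67 in limma and by 3.05 with edgeR (adjusted p = 0.00376).

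Of 6 tested adipocyte genes, 3 were higher (50.0%, beside 6.79% of all genes). FABP4, a fatty acid carrier, had medians of 11.6 and 0.957 CPM and was higher by 2.77 ± 0.57, but its log2 fold change was 0.60 with edgeR (adjusted p = 0.595). PLIN4, a coat protein of lipid droplets, was higher by 2.42 in limma and by 1.86 with edgeR (adjusted p = 0.00565). Of 11 tested genes of smooth muscle and pericytes, 6 were higher (54.5%, beside 6.79% of all genes), with a median of 1.02. The calls numbered 7 with edgeR and 4 with DESeq2, 3 without the 5 highest-scoring dogs and 1 within COTC021. SYNPO2, an actin-bundling protein of smooth and striated muscle, ranged from 0.745 to 199 CPM (median 15.2) against 0.0497 to 126 CPM (median 2.02), a log2 fold change of 3.09 ± 0.34. CNN1 and MYH11, which mark contractile smooth muscle, were higher by 2.17 and 1.99 in limma, but CNN1 had a log2 fold change of 0.98 with DESeq2 (adjusted p = 0.13). ACTA2, the smooth muscle actin, had a log2 fold change of 1.02 (limma adjusted p = 0.0539).

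Of 11 tested endothelial genes, 7 were higher, beside 6.79% of all genes, and all 11 fold changes were positive, with a median of 0.57. The calls numbered 4 with edgeR and with DESeq2, 3 without the 5 highest-scoring dogs, 2 within COTC022, and 0 within COTC021 and within the 50 deeper libraries. CLDN5, a tight junction protein, and TEK, the angiopoietin receptor, were higher by 1.17 and 1.09. TEK ranged from 7.98 to 136 CPM (median 60.7) against 1.81 to 280 CPM (median 24.6), and 22 of 26 muscle-high dogs lay above the muscle-low median. The summed CPM of the endothelial list ranged from 297 to 2504 (median 918) in the muscle-high and from 132 to 3305 (median 511) in the muscle-low dogs. Of 3 tested nerve and Schwann cell genes 0 were called by limma, edgeR or DESeq2, with 1 at an unadjusted limma p below 0.05. Genes of erythroid cells failed the filter, with a summed median of 0.417 CPM against 0.434 CPM.

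The study's ISA 1 signature holds several of these connective tissue genes. The list used here holds 29 of its genes and may not be complete. All 29 were tested, 25 were higher (86.2%, beside 6.79% of all genes) and 0 were lower, with a median log2 fold change of 1.85. The highest were MFAP5 and PRG4, followed by the microfibril protein MFAP4 (2.78), THBS4 and the homeobox gene MEOX1. With edgeR 11 of the 29 were higher, with a median of 0.98, and without the 5 highest-scoring dogs 15, beside 2.75% of all genes. Within COTC021, 1 of the 29 was called, beside 0.812% of all genes, and within COTC022, 19, beside 3.0%. All 19 genes of the ISA 2 signature were higher in each of these fits. The 3 scoring genes are among the 19 and chose the groups, so for them this is a description and no test. The study derived both signatures from these tumors, so their direction is not independent evidence, and ISA 1 was examined after values of its members had been seen.

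**Figure D4:**
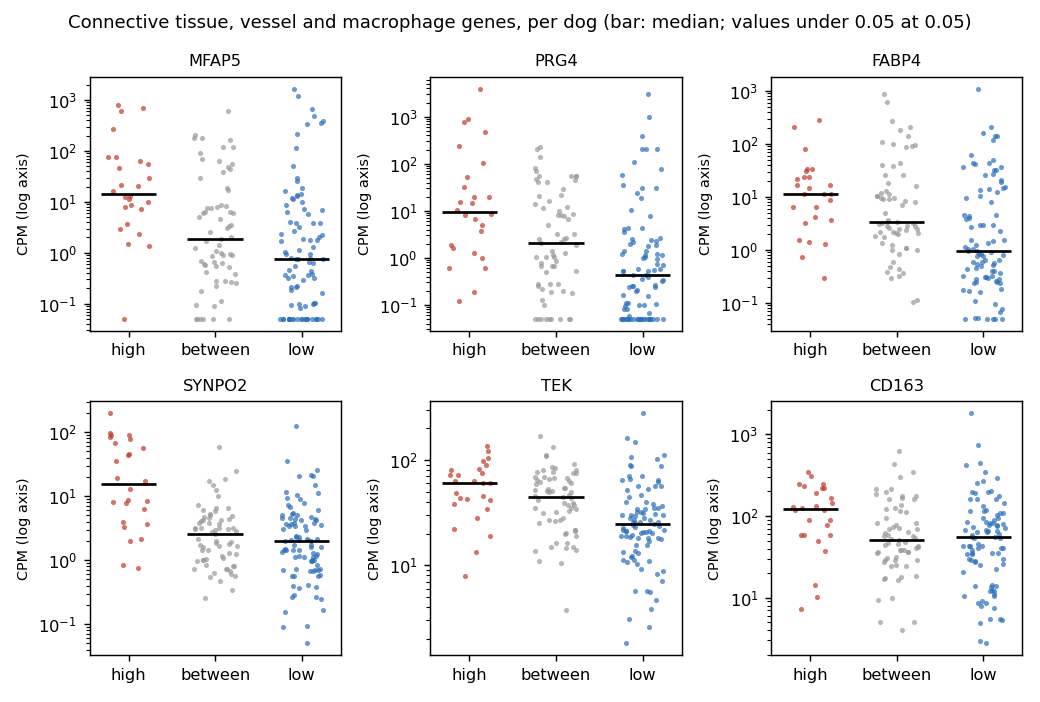
CPM (log axis) of genes of connective tissue (MFAP5, PRG4), fat (FABP4), contractile cells (SYNPO2), vessels (TEK) and macrophages (CD163), 1 point per dog, with the median of each group as a bar. The medians are higher in the muscle-high than in the muscle-low dogs, and the ranges overlap in every panel.

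Immune genes were higher in part, and the number of calls depended on the test and the list. Of 12 tested macrophage genes 5 were higher (41.7%, beside 6.79% of all genes), with all 12 fold changes positive and a median of 0.64. MARCO, a scavenger receptor, was higher by 1.97 and CD163, the hemoglobin scavenger receptor, by 1.05 in limma, but with edgeR 0 of the 12 were called and the log2 fold changes were 0.42 and 0.40. Of 6 tested neutrophil genes 4 were higher (66.7%), led by the calcium-binding protein S100A12 (1.93 in limma and 2.18 with edgeR). With edgeR 2 and with DESeq2 3 of the 6 were called higher. Of 9 T and NK cell genes 2 were higher (22.2%), the granzyme GZMK (1.56) and CD4 (1.11). With edgeR 0 were called and GZMK had a log2 fold change of -0.71, while DESeq2 called 3 of the 9 higher. Of the 27 tested genes of the immune signature GS-1, 11 were higher (40.7%) and all 27 fold changes were positive, with a median of 0.89. Its leading genes were the complement regulator CFP (1.32) and the cytokine receptor IL31RA (1.26). With edgeR 0 of the 27 were called and with DESeq2 2. Of 9 B and plasma cell genes listed, 1 was tested and 0 were called, with summed medians of 39.4 and 39.5 CPM. Within COTC021 and within the 50 deeper libraries, 0 genes of any of these lists were called. Without the 5 highest-scoring dogs the calls were 1 macrophage, 2 neutrophil, 0 T and NK cell and 4 GS-1 genes, beside 2.75% of all genes. The summed macrophage markers ranged from 193 to 5025 CPM (median 1409) in the muscle-high and from 136 to 9325 CPM (median 1217) in the muscle-low dogs. The part of vessels, fat, fascia and immune cells in the other results was not tested.

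Mitochondrial genes differed little. Of 62 tested nuclear genes of oxidative phosphorylation 6 were higher, or 9.68% beside 6.79% of all genes, and 54 had positive fold changes, with a median of 0.15. The largest were those of NDUFS7 (0.52) and NDUFB2 (0.50), both subunits of complex I. Of 25 genes of the citrate cycle and fatty acid oxidation 3 were higher, or 12.0%, led by CPT1B (0.94), the muscle form of the enzyme that admits fatty acids to mitochondria. Without the 5 highest-scoring dogs 1 gene of the first list and 0 of the second were called, and CPT1B stood at 0.58 (limma adjusted p = 0.283). SLC25A4, the ADP/ATP carrier of muscle, was higher by 0.77 ± 0.15.

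The genes that define bone-forming tumor cells were not called in either direction. Of 22 tested osteoblast lineage genes, of 23 listed, 0 passed the test in limma. The median log2 fold change was -0.09, and 13 fold changes were negative and 9 positive. At an unadjusted p below 0.05 there were 3, of which 2 were negative. With edgeR and with DESeq2, 1 was higher, SPP1 (osteopontin). The master regulator of osteoblasts RUNX2 ranged from 30.4 to 367 CPM (median 171) in the muscle-high and from 42.5 to 1053 CPM (median 221) in the muscle-low dogs, a log2 fold change of -0.41 ± 0.17 (limma adjusted p = 0.105). SP7, which acts after RUNX2, had medians of 14.5 and 29.2 CPM and a log2 fold change of -0.79 ± 0.40 (limma adjusted p = 0.207). COL1A1, the main collagen of bone, had medians of 22770 and 18540 CPM and a log2 fold change of 0.10 ± 0.30. The summed osteoblast markers had medians of 59750 and 61060 CPM. For SP7, 21 of 26 muscle-high dogs lay below the muscle-low median, and the groups overlapped over nearly the whole range.

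Cartilage and osteoclast genes gave no call in limma, over 13 and 10 tested genes, with medians of -0.42 and 0.24, and 1 and 0 genes at an unadjusted p below 0.05. For osteoclasts, edgeR and DESeq2 called 0 genes as well. COL2A1, the collagen of cartilage, had medians of 2.80 and 12.2 CPM and a log2 fold change of -1.60 ± 1.19 (limma adjusted p = 0.427). DESeq2 called it lower, by -4.81 on the log2 scale (adjusted p = 6.44e-11), among 5 cartilage genes, and edgeR called 1 lower. Of 17 matrix genes 1 was lower (5.88%, beside 2.45% of all genes). The gene was the membrane-bound collagenase MMP14, with medians of 1061 and 1469 CPM and a log2 fold change of -0.48 ± 0.14 (limma adjusted p = 0.0183). The cause of the difference between the tests was not tested.

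Proliferation genes were lower in part. All 28 tested genes had negative fold changes, with a median of -0.37, and 2 of them (7.14%) were lower, beside 2.45% of all genes. MCM7, a subunit of the helicase that opens replication origins, ranged from 49.9 to 189 CPM (median 95.8) in the muscle-high and from 54.0 to 452 CPM (median 141) in the muscle-low dogs. The log2 fold change of MCM7 was -0.52 ± 0.12 (limma adjusted p = 0.000861), and 23 of 26 muscle-high dogs lay below the muscle-low median. MCM2, of the same helicase, had medians of 65.8 and 112 CPM and a log2 fold change of -0.61 ± 0.19 (limma adjusted p = 0.02). MKI67, a marker of cycling cells, had medians of 103 and 154 CPM and did not pass the test (-0.34 ± 0.22, limma adjusted p = 0.343). With edgeR 8 and with DESeq2 10 of the 28 were lower, beside 4.13% and 5.78% of all genes. Fitted alone, COTC021 and the 50 deeper libraries called 0 of them lower, and COTC022 and the other 136 libraries 1 each. Without the 5 highest-scoring dogs 1 was lower, at a median of -0.22.

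Of 18 tested genes of bone and tumor signalling 1 was lower (5.56%, beside 2.45% of all genes). The gene was the glucose transporter SLC2A1, with medians of 43.4 and 68.2 CPM and a log2 fold change of -0.70 ± 0.20 (limma adjusted p = 0.0136). IGF2BP1, a fetal RNA-binding protein, had the most negative fold change of the list, -2.06 ± 1.16, without passing the test (limma adjusted p = 0.268). A list of sterol and fatty acid synthesis was examined after the values had been seen. Of its 27 genes 7 were lower (25.9%, beside 2.45% of all genes) and 26 had negative fold changes, with a median of -0.33. Fitted alone, COTC021 and the 50 deeper libraries called 0 of them lower, and COTC022 and the other 136 libraries 1 each. SQLE, an oxygenase of cholesterol synthesis, had medians of 23.0 and 61.1 CPM and a log2 fold change of -0.91 ± 0.30. The regulator SREBF1 and the fatty acid synthase FASN were lower as well, at -0.58 ± 0.15 and -0.45 ± 0.12 on the log2 scale.

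The 10 most negative fold changes among called genes with the same direction in each trial and library group were small beside those of the muscle genes. CDK3, a cyclin-dependent kinase, ranged from 0 to 28.6 CPM (median 0.894) in the muscle-high and from 0 to 55.5 CPM (median 3.81) in the muscle-low dogs, a log2 fold change of -2.19 ± 0.71 (limma adjusted p = 0.0341). HOXD12, HOXC10, HOXC6 and HOXD13, transcription factors that pattern the limb and trunk, followed with -1.78, -1.51, -1.32 and -1.27. NXPH4, a neurexophilin, had a log2 fold change of -1.30 and CACHD1, a subunit of calcium channels, one of -1.15 ± 0.26 (limma adjusted p = 0.0012). ITGA10, a collagen-binding integrin of cartilage, had medians of 101 and 185 CPM and a log2 fold change of -1.0 ± 0.27. The transporter SLC4A11 and the adhesion molecule CADM4 closed the list with -0.95 and -0.93. For CACHD1, with medians of 7.78 and 22.7 CPM, 24 of 26 muscle-high dogs lay below the muscle-low median. The lowest muscle-high dog lay below all 93 muscle-low dogs, but the highest, ranked 14, stood at 51.8 CPM, so the groups overlapped.

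CACHD1 was the only one of these 10 genes still called without the 5 highest-scoring dogs, at -1.02 on the log2 scale (limma adjusted p = 0.028). Without the dog ranked 4, CDK3, NXPH4, HOXD13 and SLC4A11 were no longer called, with adjusted p between 0.0547 and 0.106, and neither was SQLE. The 4 HOX genes were not called by edgeR, with adjusted p from 0.0508 for HOXD12 to 0.492 for HOXC6. Of 29 tested HOX genes, a list examined after the values had been seen, 4 were lower (13.8%, beside 2.45% of all genes). Negative fold changes were found for 26 of the 29, with a median of -0.50. The summed HOX genes ranged from 88.3 to 407 CPM (median 149) in the muscle-high and from 45.2 to 500 CPM (median 262) in the muscle-low dogs.

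**Figure D5:**
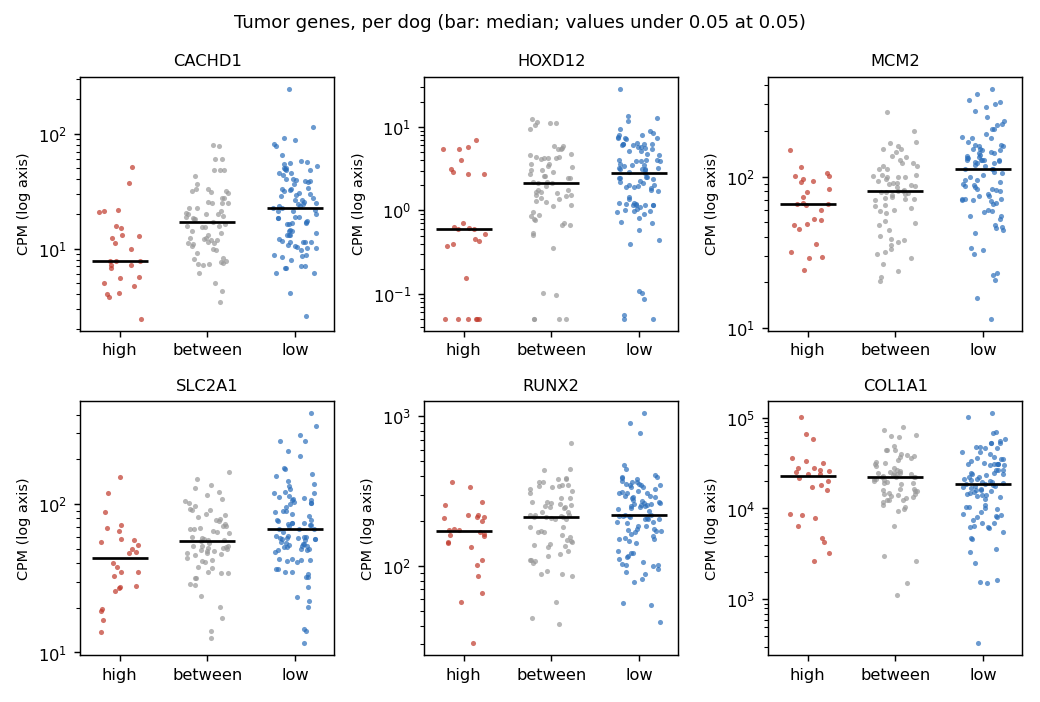
CPM (log axis) of 6 genes of tumor cells or bone, 1 point per dog, with the median of each group as a bar. The medians of CACHD1, HOXD12, MCM2 and SLC2A1 are lower in the muscle-high dogs, those of RUNX2 and COL1A1 (171 against 221 and 22770 against 18540 CPM) belong to differences that did not pass the test, and the ranges overlap in every panel.

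The same contrast was then fitted for each trial and for each group of libraries alone. Within COTC021, 109 genes were higher and 3 lower, and within COTC022, 403 and 111. Within the 50 deeper libraries, which hold 7 muscle-high dogs, 102 were higher and 1 lower, and within the other 136, 375 and 107. The log2 fold change of MYH2 was 8.95 and 8.89 in the trials and that of MCM7 was -0.35 and -0.65. A test of the difference itself called 0 of 13422 genes between the trials and 0 between the groups of libraries (limma interaction), with 270 and 296 genes at an unadjusted p below 0.05.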

How the data were processed

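The authors aligned trimmed reads to the canine build UU_Cfam_GSD_1.0 with STAR 2.7.0f, quantified genes with RSEM 1.3.1 (versions per the submitters' processing notes) and left the expected counts of 37952 genes unnormalized in the deposited table. RSEM divides reads shared by similar genes, and the 3.07% of values that were not whole were rounded. Of 198 columns, 12 could not be tied to a labelled sample and were not used. Totals of 6587634 to 27420867 counts limit the precision of genes with few counts, and detection was set at 10 counts.

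Genes were kept with filterByExpr of edgeR 4.0.16 (a minimum count of 10, a proportion of 0.5 and a large group size of 5). After TMM scaling they were fitted by voom and limma 3.58.1 under R 4.3.3, with the trial as a covariate and all 186 dogs in 3 groups. Values were adjusted by Benjamini-Hochberg over all genes tested, called at 0.05, and called DEGs above 3-fold. The errors printed after ± are standard errors of this fit. CPM are not TMM-normalized. Alternatives were the edgeR quasi-likelihood test, DESeq2 1.42.0, other scalings, filters, scores and subsets of dogs. The limma script was tested on simulated data. Permutation and Fisher tests used Python 3.11.15 with scipy 1.17.1. Gene positions come from RefSeq of the same build.

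The members and the gene lists were chosen with earlier results of these data known. Named are the scoring genes, the 10 largest changes in each direction with a symbol that is not a LOC name and the same direction in each trial and library group, list members, and, among genes that passed the filter, the 10 with the highest rho. The ISA 1, HOX and sterol lists and PRG4 were added after their values were seen. A few list members are counted but not named or described.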

Additional observations from a re-analysis of the deposited data

How the results depend on the processing

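In a set of 84 of the named genes tested, each fitted under 19 alternatives, 4 were counted as changing sign in any of them. GZMK was -0.71 with edgeR. ALPL was 0.36 within COTC021, IBSP 0.46 within COTC021, 0.87 within the 50 deeper libraries and 0.00186 without the dog ranked 18, and COL1A1 -0.0835 within COTC022 and -0.0193 against all other dogs. The count of 4 leaves out other genes named in the text that changed sign. MYH7B was -0.17, and 0.27 within the 50 deeper libraries, and GYS1 was -0.05, and 0.17 within them. COX7A1 was 0.09, and -0.18 within COTC021, and RYR2 was 0.0022, and -0.45 with edgeR. Of the 1596 values of the set, 228 lost and 11 gained a call. The fits without the dogs ranked 4 and 18 were chosen after seeing the data.

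Genes higher numbered 912, and 1908 without the low-count filter, 109 and 403 within COTC021 and COTC022, 102 and 375 within the deeper and the other libraries, 369 without the 5 highest-scoring dogs and 596 with edgeR. Genes lower numbered 329, and 212 with the muscle-high and muscle-low dogs alone, 3 and 111 within the trials, 1 and 107 within the library groups, 53 without the 5 highest-scoring dogs, 201 without the dog ranked 4, 105 against all other dogs, 554 with edgeR and 776 with DESeq2. Higher DEGs numbered 130, and 367 without the filter, 265 with a filter on 26 libraries and 77 within COTC021. Lower DEGs numbered 2, and 4 without the trial term, without the filter, with the filter on 26 libraries and without the dog ranked 18, 1 with the compared dogs alone and against all other dogs, 0 in either trial alone, in the deeper libraries and without the dogs ranked 1 to 5 or the dog ranked 4, 14 with edgeR and 23 with DESeq2. The library interaction called 2 genes without the filter. Subsets hold fewer dogs, and the cause of the other shifts was not tested. No paired analysis was possible because each dog was sequenced once and falls in a single group.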
